A study of Rattus norvegicus with 4 samples.

Results

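The genes described here carry out glycolysis, the pentose phosphate pathway and the handling of pyruvate, lactate and glycogen, in smooth muscle cells cultured from the aorta of Sprague-Dawley rats and given interleukin-1 beta (IL-1b), a cytokine of inflammation, or its vehicle. A list of 39 genes was taken, and a probe set of the array was used when the platform annotation gave it exactly 1 gene symbol from the list. This gave 56 gene probe sets and 6 array control probe sets for 37 of the 39 genes, of 14218 genes with such a probe set on the array. The brightest probe set of a gene stood for it, and 34 of the 39 genes, of 10000 in all, were bright enough on average to be tested. Of the other 5, Pfkfb1 and Pdk4 had dim probe sets, and Dlat was not analysed here. Gapdh had array control probe sets and, like Pkm, 1 probe set that carried more than 1 symbol and was not used. The 2 IL-1b samples received 2.5 ng/mL IL-1b for 24 hours, and the 2 vehicle samples received 0.1% bovine serum albumin for the same time. All 4 had first been kept for 5 days with 10% serum and for 3 days in serum-free medium. Each sample was hybridised to its own single-colour Affymetrix array, and levels are MAS5 probe set intensities, which cannot be compared between probe sets. The labels do not say whether the samples came from separate cultures or animals, so the p-values reflect only how far these samples spread, and that spread may be technical.

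Glycolysis splits glucose into pyruvate in the cytosol, and the pyruvate is either reduced to lactate and exported or oxidised in mitochondria by the pyruvate dehydrogenase complex. The pentose phosphate pathway branches off after the first step and supplies NADPH and ribose. Vascular smooth muscle is known for making much lactate even when oxygen is plentiful, and inflammatory signals raise glucose use in many cell types.

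One array, IL-1b replicate 1, differed from the rest. The bacterial transcripts spiked in to check hybridisation read 3.50 times their vehicle mean on it, and 0.952 times on IL-1b replicate 2. Array background, from 27 dim bacterial control probe sets, was 76.7 on it and 18.8 on IL-1b replicate 2. On vehicle replicates 1 and 2 it was 29.4 and 26.9. Of the 34 tested members, 25 read higher on IL-1b replicate 1 than on IL-1b replicate 2, with a median log2 difference of 0.15, against -0.01 over all 10000 genes tested. Differences over 0.5 between these arrays were found for 8 members, which were Aldoc, Pfkfb4, Aldoa, Pfkfb2, Pygl, Gpi, Pdk2 and Pfkfb3. The 8 smooth muscle markers examined were above array background on all 4 arrays. Their summed intensity was 13590 and 12347 on the IL-1b arrays, against 38890 and 39431 on the vehicle arrays, and 7 of the 8 fell. Of the 6 tested markers of other cells, the fibroblast gene Pdgfra rose, at 148 and 146 with IL-1b, against 31.7 and 46.3 with vehicle (1.80 ± 0.41, adjusted p = 0.031, and 0.16 and 0.077 without vehicle replicates 1 and 2), and the other 5 did not pass. Of the markers of other cells with a probe set, 0 of 6 endothelial, 1 of 8 macrophage (Cd14), 3 of 5 fibroblast (Lum, Pdgfra, Thy1) and 0 of 3 lymphocyte genes were above background on all 4 arrays. The endothelial genes Emcn, Pecam1, Tie1 and Vwf, the macrophage genes Cd163 and Itgam and the lymphocyte genes Cd2 and Cd3d were below background on all 4. Summed intensities of the endothelial genes were 238 and 81.8 with IL-1b, against 81.8 and 105 with vehicle, and those of the lymphocyte genes 171 and 34.0 with IL-1b, against 67.9 and 25.3 with vehicle. The macrophage genes summed to 1067 and 1068 with IL-1b, against 733 and 683 with vehicle. Of these sums Cd14 alone made up 796 and 950, against 616 and 578 (adjusted p = 0.072, limma). The fibroblast genes summed to 1081 and 1649 with IL-1b, against 853 and 786 with vehicle. Of these Lum alone made up 658 and 1234, against 449 and 488 (adjusted p = 0.078, limma). The part of these cell types in the results was not tested, and fewer cells of a type and less RNA per cell cannot be told apart in such samples.

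With IL-1b, the 3 largest log2 fold changes among the 34 tested members were those of membrane carriers, Slc16a1, Slc2a3 and Slc2a1. The glucose transporters Slc2a1 and Slc2a3 and the lactate carriers Slc16a1 and Slc16a3 rose, as did Pgd and Taldo1 of the pentose phosphate pathway. Ldhb, a lactate dehydrogenase subunit, and Pdk3, a pyruvate dehydrogenase kinase, fell. In limma, fitted over all 18625 probe sets with Benjamini-Hochberg adjustment and 0.05 as the threshold, 6 of the 34 members were higher and 2 lower. Among all genes tested 7.19% were higher and 8.13% lower (15.3% in either direction), and among all probe sets 13.4% passed. The median log2 fold change of the 34 members was 0.21, against -0.01 over all genes, and 7 members, or 20.6%, reached 1 in size, against 16.3% of all genes. Leaving out IL-1b replicate 1 put the members' median at -0.0015, and leaving out the other IL-1b array put it at 0.33. At an unadjusted p of 0.05, 10 members were higher and 7 lower, or 50%, against 29.9% of all genes. Both IL-1b arrays lay above both vehicle arrays for 14 members and below for 11, shares of all genes being 29.4% and 31.8%. Centring each array on its median moved the median of all genes to -0.21, and the share of calls over all probe sets that were higher to 34.4%, against 47.1%. The count of members was then 3 higher and 2 lower, with Slc2a1, Slc2a3 and Slc16a1 higher. Over all 18625 probe sets 562 were then higher and 1072 lower. The members' median lay 0.22 above that of all genes, a gap that centring cannot change, and 0.16 above it after quantile normalization. With 1 array left out, the spread came from the 2 arrays of the other group alone, and the lone array was assumed to vary like them. Calls then became more or fewer over all probe sets as well as among the members, so such counts show nothing particular to the members.

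**Figure D1:**
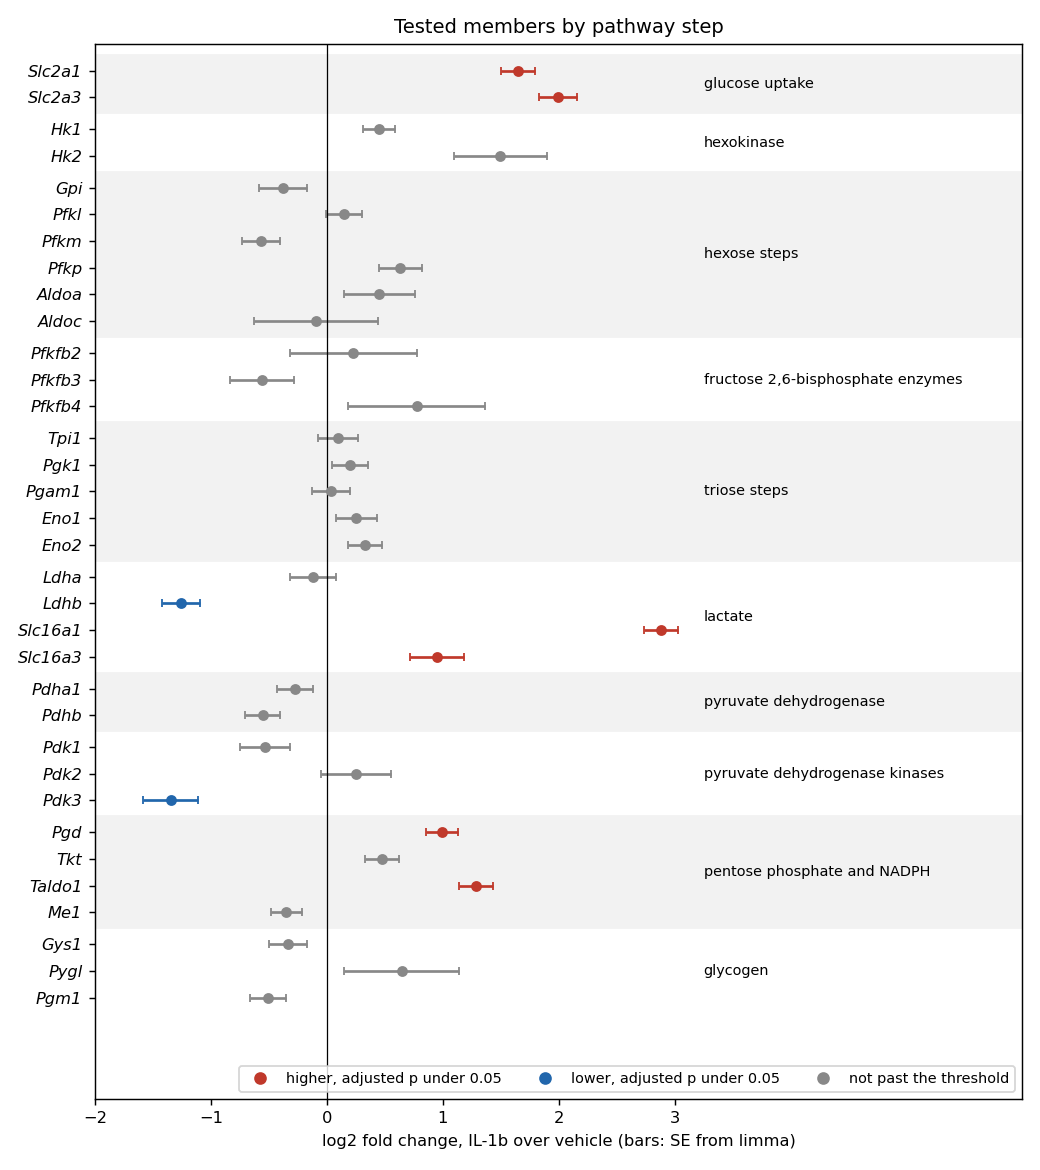
Log2 fold change of IL-1b over vehicle (x axis) for the 34 tested members, grouped by pathway step, with bars for the standard error from limma. Points to the right of 0 are higher with IL-1b, and the 6 members past the threshold on that side are Slc2a1, Slc2a3, Slc16a1, Slc16a3, Pgd and Taldo1.

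Both glucose transporters among the members rose. Slc2a1 encodes GLUT1, the carrier that supplies basal glucose to most cells, and read 1138 and 1058 on the IL-1b arrays, against 337 and 355 on the vehicle arrays. The IL-1b arrays lay above the vehicle arrays with no overlap. Its mean intensity was 1098 ± 56.6 with IL-1b and 346 ± 12.7 with vehicle (SD, n = 2 each), 3.14-fold higher on the offset log2 scale, with a log2 fold change of 1.65 ± 0.15 (SE, adjusted p = 6.3e-04, limma). Slc2a3 encodes GLUT3, a carrier of high affinity best known in neurons, and read 813 and 856 on the IL-1b arrays, against 203 and 208 on the vehicle arrays. This was 3.99-fold higher with IL-1b, or 1.99 ± 0.16 as a log2 fold change (adjusted p = 4.0e-04). A second, dimmer Slc2a3 probe set read 217 and 352 with IL-1b, against 54.4 and 29.3 with vehicle, with a log2 fold change of 2.63 ± 0.42 (adjusted p = 0.0075). Slc2a1 and Slc2a3 passed in all 15 alternatives tried for them, with log2 fold changes of 1.44 to 1.70 and 1.79 to 2.31. The promoter window of Slc2a1 (RefSeq, GRCr8, chr5:138002272-138002571, plus strand), from 250 bases before to 50 after the annotated start, is shown because it is the gene of basal glucose entry and holds 1 copy of the hypoxia response element core ACGTG, in capitals:
Slc2a1: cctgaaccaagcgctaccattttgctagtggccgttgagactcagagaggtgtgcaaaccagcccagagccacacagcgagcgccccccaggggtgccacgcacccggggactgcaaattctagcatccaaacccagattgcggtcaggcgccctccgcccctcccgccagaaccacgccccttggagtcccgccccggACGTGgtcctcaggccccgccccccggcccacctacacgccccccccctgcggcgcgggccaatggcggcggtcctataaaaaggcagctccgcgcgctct

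Both lactate carriers among the members rose, and Slc16a1 had the largest log2 fold change of the 34. Slc16a1 encodes MCT1, a proton-linked carrier that moves lactate and pyruvate across the plasma membrane in either direction, and read 1632 and 1751 on the IL-1b arrays, against 218 and 231 on the vehicle arrays. Its mean intensity was 1692 ± 84.4 with IL-1b and 224 ± 9.60 with vehicle (SD, n = 2 each), 7.38-fold higher with IL-1b, and its log2 fold change was 2.88 ± 0.15 (SE, adjusted p = 9.1e-05, limma). It passed in all 15 alternatives, at 2.68 to 2.93. Slc16a3 encodes MCT4, the carrier of cells that export much lactate, and read 299 and 246 on the IL-1b arrays, against 134 and 141 on the vehicle arrays. The groups did not overlap, and its log2 fold change was 0.95 ± 0.23 (adjusted p = 0.04). Its call was lost without vehicle replicate 1 (0.24) or vehicle replicate 2 (adjusted p = 0.21), without the intensity trend (0.085), after quantile normalization (0.054) and after median centring (0.27). The promoter windows of both carriers are shown for comparison (RefSeq, GRCr8, Slc16a1 at chr2:194812410-194812709, plus strand, and Slc16a3 at chr10:106712078-106712377, plus strand). Capitals mark, in Slc16a1, copies of ACGTG and a copy of the antioxidant response element core TGACNNNGC, which overlaps ACGTG in the first capital run, and in Slc16a3 a copy of the AP-1 motif TGANTCA:
Slc16a1: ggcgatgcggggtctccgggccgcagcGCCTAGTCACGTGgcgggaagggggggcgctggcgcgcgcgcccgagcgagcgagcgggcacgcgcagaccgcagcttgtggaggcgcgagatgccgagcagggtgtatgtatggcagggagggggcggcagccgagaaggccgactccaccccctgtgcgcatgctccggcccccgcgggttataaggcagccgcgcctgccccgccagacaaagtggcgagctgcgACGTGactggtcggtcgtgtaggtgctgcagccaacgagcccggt
Slc16a3: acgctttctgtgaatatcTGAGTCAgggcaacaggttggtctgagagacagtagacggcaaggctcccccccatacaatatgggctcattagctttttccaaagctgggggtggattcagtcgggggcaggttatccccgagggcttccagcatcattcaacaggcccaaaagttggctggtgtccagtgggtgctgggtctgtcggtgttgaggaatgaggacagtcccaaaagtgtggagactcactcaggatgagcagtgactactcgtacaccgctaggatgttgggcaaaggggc

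**Figure D2:**
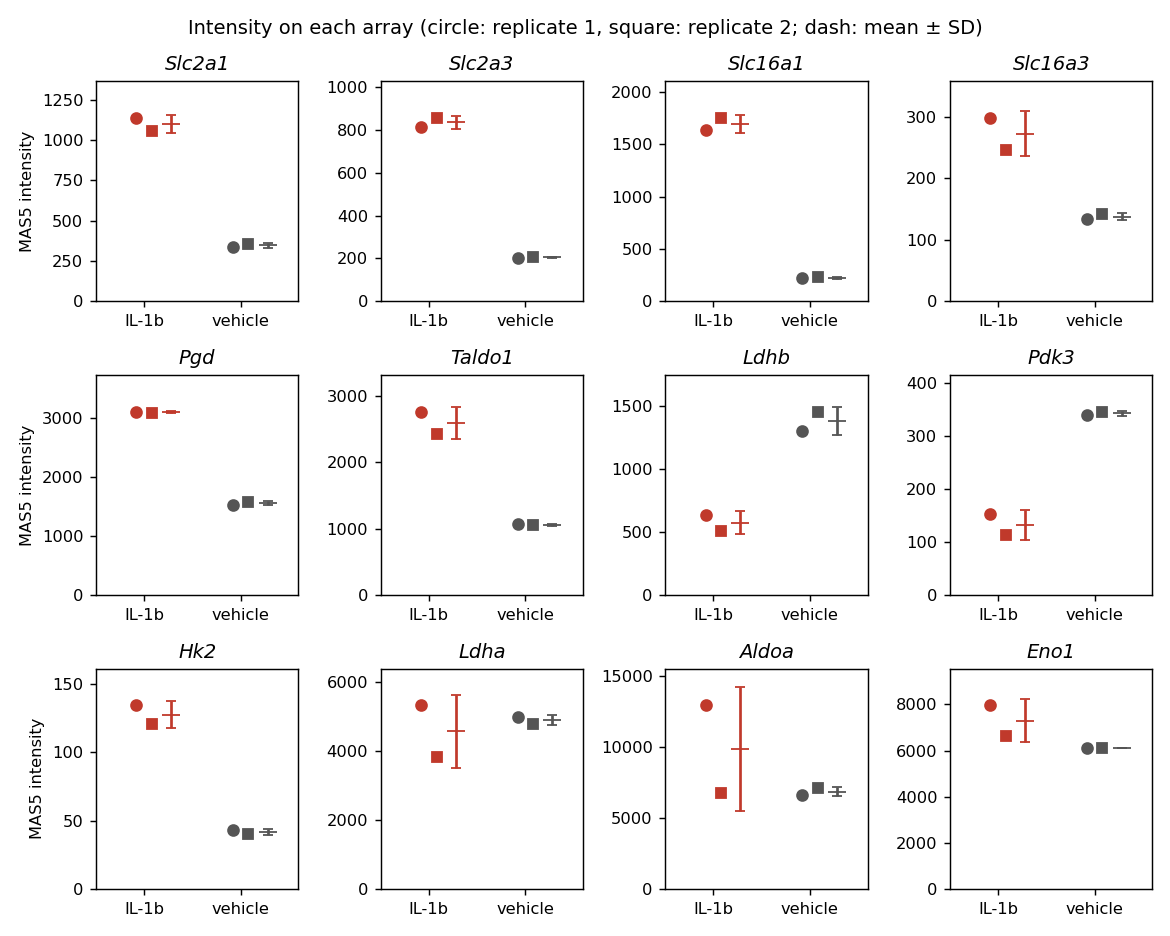
MAS5 intensity (y axis, starting at 0) on each array for the 8 members past the threshold and for Hk2, Ldha, Aldoa and Eno1, with the IL-1b arrays on the left and the vehicle arrays on the right of each panel. Dashes with bars are the mean and SD of the 2 arrays, and the 8 members in the first 2 rows of panels show no overlap between groups.

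Lactate dehydrogenase is a tetramer of A and B subunits, and the B subunit, from Ldhb, is typical of tissues that oxidise lactate. Ldhb read 637 and 512 on the IL-1b arrays, against 1300.2 and 1456 on the vehicle arrays. Its mean was 575 ± 88.4 with IL-1b and 1378 ± 109.9 with vehicle (SD, n = 2 each), 2.39-fold higher in vehicle, and its log2 fold change was -1.26 ± 0.17 (SE, adjusted p = 0.0035, limma). Ldha, for the A subunit that is typical of glycolytic tissue, read 5318 and 3819.8 on the IL-1b arrays, against 4991 and 4786 on the vehicle arrays, and the groups overlapped. Its log2 fold change of -0.12 ± 0.20 did not pass (adjusted p = 0.75), with a 95% interval of -0.59 to 0.36. Ldhb missed the threshold when no intensity trend was fitted (adjusted p = 0.058). Ldha was at -0.36 without IL-1b replicate 1 and at 0.12 without IL-1b replicate 2, with the opposite sign.

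Pyruvate dehydrogenase turns pyruvate into acetyl-CoA, and the pyruvate dehydrogenase kinases switch it off by phosphorylation. Pdk3 read 153 and 113 on the IL-1b arrays, against 340.5 and 347 on the vehicle arrays, with no overlap between groups. Its mean was 133 ± 28.5 with IL-1b and 344 ± 4.52 with vehicle (SD, n = 2 each), and its log2 fold change was -1.35 ± 0.24 (SE, adjusted p = 0.012, limma). The other Pdk3 probe set read 112 and 100.2 with IL-1b, against 262 and 291 with vehicle and fell by 1.34 on the log2 scale (adjusted p = 0.013). The Pdk3 call was lost without vehicle replicate 1 or 2 (adjusted p = 0.059 and 0.081) and without the intensity trend (0.058). Its promoter window (RefSeq, GRCr8, chrX:62547322-62547621, minus strand) is shown as that of a gene that fell and that also holds 1 copy of ACGTG, in capitals:
Pdk3: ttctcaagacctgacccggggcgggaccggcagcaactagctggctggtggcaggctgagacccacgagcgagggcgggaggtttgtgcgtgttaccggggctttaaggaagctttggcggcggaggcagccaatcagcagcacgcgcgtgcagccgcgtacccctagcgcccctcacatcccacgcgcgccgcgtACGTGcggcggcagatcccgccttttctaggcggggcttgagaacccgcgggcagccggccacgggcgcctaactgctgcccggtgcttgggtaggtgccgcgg

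The other kinases did not pass. Pdk1, a kinase induced in hypoxia, had log2 fold changes of -0.53 ± 0.22 and 0.06 ± 0.28 at its 2 probe sets (adjusted p = 0.17 and 0.91), which differ in sign. For Pdk2, the most widely expressed kinase, the values were 0.25 ± 0.30 and 1.54 ± 0.78 (adjusted p = 0.64 and 0.26). The dimmer probe set, at 1.54, read 107 and 41.6 with IL-1b, against 11.5 and 31.1 with vehicle. Of its 2 vehicle values, 1 was above array background. Pdk4, which rises in fasting, was too dim to be tested, at 121 and 41.5 with IL-1b, against 9.63 and 8.06 with vehicle at its brighter probe set. It was above background on both IL-1b arrays and on neither vehicle array. With the vehicle values set to background, its IL-1b geometric mean was 2.52-fold higher. The IL-1b values were not lowered by their own background (76.7 and 18.8), so this is no strict lower limit. With no filter the adjusted p of Pdk4 in limma was 0.14. Of the complex itself, Pdha1, for the alpha subunit of the first enzyme, read 1661 and 2022 on the IL-1b arrays, against 2234 and 2210.2 on the vehicle arrays at its brighter probe set. Its log2 fold change was -0.28 ± 0.16 (adjusted p = 0.30, 95% interval -0.65 to 0.09), and 0.10 ± 0.23 at the other. Pdhb, for the beta subunit, read 701 and 810.4 on the IL-1b arrays, against 1114 and 1106 on the vehicle arrays, without overlap. At -0.55 ± 0.15 it lay close to the threshold (adjusted p = 0.053). It passed with the filter at the 60th percentile (adjusted p = 0.039) and with the median over probe sets (0.046). Without IL-1b replicate 1 Pdhb was at -0.45, and without IL-1b replicate 2 at -0.66. The brighter Pdha1 probe set was at -0.14 without IL-1b replicate 1 and at -0.42 without IL-1b replicate 2. The other was at 0.45 without IL-1b replicate 1 and at -0.24 without IL-1b replicate 2. At an unadjusted p of 0.05, 1 of the 2 tested subunits of the complex was lower (29.9% of all genes passed in either direction), and at the threshold 0 of 2 were.

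In the pentose phosphate pathway Pgd and Taldo1 rose. Pgd encodes phosphogluconate dehydrogenase, the second NADPH-producing enzyme of the oxidative branch, and read 3102 and 3081 on the IL-1b arrays, against 1528 and 1574 on the vehicle arrays. The difference between the arrays of a group was small beside that between groups. Its mean was 3091 ± 14.9 with IL-1b and 1551 ± 33.1 with vehicle (SD, n = 2 each), 1.99-fold higher with IL-1b, with a log2 fold change of 0.99 ± 0.14 (SE, adjusted p = 0.0041, limma). Taldo1 encodes transaldolase of the non-oxidative branch, and read 2766 and 2421 on the IL-1b arrays, against 1067 and 1050.3 on the vehicle arrays. Its mean was 2593 ± 244 with IL-1b and 1058 ± 11.6 with vehicle (SD, n = 2 each), and its log2 fold change 1.29 ± 0.14 (adjusted p = 0.0017). Tkt, transketolase of the same branch, read 2472 and 2190.3 on the IL-1b arrays, against 1644 and 1702 on the vehicle arrays. The groups did not overlap, and its log2 fold change of 0.47 ± 0.14 did not pass (adjusted p = 0.079). Me1, the cytosolic malic enzyme, which also makes NADPH, read 1002 and 1053 on the IL-1b arrays, against 1270.2 and 1350.0 on the vehicle arrays, and at -0.35 ± 0.14 and -0.31 ± 0.14 its 2 probe sets did not pass (adjusted p = 0.16 and 0.21). The Pgd call was lost without vehicle replicate 1 or 2 (adjusted p = 0.08 and 0.068), without the intensity trend (0.063) and after median centring (0.16), and that of Taldo1 after median centring (0.051). Tkt passed after quantile normalization (adjusted p = 0.038). Without IL-1b replicate 1 and then without IL-1b replicate 2, Tkt was at 0.39 and 0.56 and the brighter Me1 probe set at -0.31 and -0.38.

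Hexokinases trap glucose in the cell as its phosphate. Hk2, the inducible form of muscle and fat, read 134 and 120.4 on the IL-1b arrays, against 43.1 and 40.02 on the vehicle arrays. The IL-1b arrays were 2.82 times the vehicle arrays on the offset log2 scale, with a log2 fold change of 1.50 ± 0.40, but it narrowly missed the threshold (adjusted p = 0.054, 95% interval 0.54 to 2.45). It passed with the replicate block, without the intensity trend and with the median over probe sets, with adjusted p of 0.034 to 0.046. Without IL-1b replicate 1 Hk2 was at 1.42, and without IL-1b replicate 2 at 1.57. Hk1, the broadly expressed form, read 1380.1 and 1479.9 on the IL-1b arrays, against 1074 and 1019 on the vehicle arrays, with a log2 fold change of 0.45 ± 0.14 (adjusted p = 0.083). It passed after quantile normalization (adjusted p = 0.041), and was at 0.50 without IL-1b replicate 1 and at 0.40 without IL-1b replicate 2. Hk1 is also an array control with 3 probe sets along the transcript. These had log2 fold changes of 1.31 at the 5' end, 0.75 in the middle and 0.68 at the 3' end, with adjusted p of 0.011, 0.071 and 0.055 in a fit with the rat control probe sets, added after the data were seen. At the threshold 0 of 2 hexokinases were called in limma, and 2 of 2 were higher at an unadjusted p of 0.05, against 29.9% of all genes in either direction.

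Of the 6 genes tested for the hexose steps, 0 passed at their brightest probe set, and 1 was higher and 1 lower at an unadjusted p of 0.05, a share near the 29.9% of all genes. Phosphofructokinase, the main control point of glycolysis, has 3 subunit genes, with values of both signs. Pfkp, the platelet form, read 566 and 744 on the IL-1b arrays, against 397 and 437 on the vehicle arrays (0.63 ± 0.19, adjusted p = 0.073). Pfkm, the muscle form, read 365 and 332 on the IL-1b arrays, against 498 and 540.4 on the vehicle arrays (-0.57 ± 0.17, adjusted p = 0.07). Neither overlapped between groups, and Pfkm fell at its dimmer probe set, which read 147 and 164 with IL-1b, against 327 and 290.0 with vehicle (-0.96 ± 0.22, adjusted p = 0.029). Pfkl, the liver form, had a log2 fold change of 0.15 ± 0.16 with overlapping groups (adjusted p = 0.59). Aldoa, the main aldolase of muscle, read 12906 and 6772 on the IL-1b arrays, against 6599.6 and 7064 on the vehicle arrays. Its high IL-1b value came from replicate 1, and without that array its log2 fold change of 0.45 ± 0.30 (adjusted p = 0.39) was -0.01, against 0.92 without IL-1b replicate 2. Gpi, glucose phosphate isomerase, was at -0.38 ± 0.21 and the brain aldolase Aldoc at -0.09 ± 0.53 (adjusted p = 0.30 and 0.93). Without IL-1b replicate 1, Gpi was at -0.65, and without IL-1b replicate 2 at -0.10. Pfkp passed after quantile normalization (adjusted p = 0.047) and with the replicate block (0.038), and Pfkm with the median over probe sets (0.026). Without IL-1b replicate 1 and then without replicate 2, Pfkm was at -0.64 and -0.50 and Pfkp at 0.83 and 0.44.

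The Pfkfb genes encode enzymes that make and break the fructose bisphosphate that activates phosphofructokinase. Pfkfb3, the form with the strongest kinase activity, read 163 and 115 on the IL-1b arrays, against 190.3 and 219 on the vehicle arrays at its brightest probe set, without overlap. At -0.56 ± 0.28 it did not pass (adjusted p = 0.25), and its other tested probe set was at 0.30 ± 0.64 (0.80), with the opposite sign. Pfkfb4 read 116 and 46.2 on the IL-1b arrays, against 38.9 and 42.9 on the vehicle arrays and Pfkfb2 77.3 and 42.5 on the IL-1b arrays, against 50.4 and 46.4 on the vehicle arrays, with adjusted p of 0.44 and 0.82. Both read higher on IL-1b replicate 1. Without that array their log2 fold changes of 0.77 and 0.23 were 0.16 and -0.16. In limma 0 of 3 passed, also at an unadjusted p of 0.05, which 29.9% of all genes reached. Without IL-1b replicate 2, Pfkfb4 was at 1.39 and Pfkfb3 at -0.32, and without IL-1b replicate 1 Pfkfb3 was at -0.80. Pfkfb1, the liver form, read 91.4 and 14.8 on the IL-1b arrays, against 14.7 and 32.6 on the vehicle arrays, above background on 1 array of each group. Probe sets too dim to be tested differed in direction. One of Pfkfb2 read 109 and 39.0 with IL-1b, against 3.26 and 11.5 with vehicle, above background on both IL-1b arrays and neither vehicle array. With the vehicle values set to background, its IL-1b geometric mean was 2.31-fold higher, which is no strict lower limit. Another of Pfkfb2 read 21.9 and 15.1 with IL-1b, against 67.8 and 61.8 with vehicle. One of Pfkfb4 read 21.9 and 8.70 with IL-1b, against 84.3 and 33.4 with vehicle. Both were above background on both vehicle arrays and neither IL-1b array. The cutoffs were unequal, and that of IL-1b replicate 1 (76.7) lay above both of these Pfkfb2 vehicle values. With no filter the adjusted p of these 3 dim probe sets was 0.14, 0.30 and 0.38.

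The enzymes of the triose steps yield the ATP of glycolysis. Of the 5 tested, 0 passed in limma, also at an unadjusted p of 0.05 (29.9% of all genes), at their brightest probe set. Eno1, the ubiquitous enolase, read 7958 and 6643 on the IL-1b arrays, against 6114 and 6092 on the vehicle arrays, with a log2 fold change of 0.25 ± 0.18 (adjusted p = 0.41) and a 95% interval of -0.17 to 0.67. Pgam1, phosphoglycerate mutase, read 6497 and 6188 on the IL-1b arrays, against 6395 and 5984 on the vehicle arrays, and its interval was -0.35 to 0.42. The triose isomerase Tpi1 had an interval of -0.31 to 0.50 and the kinase Pgk1 one of -0.17 to 0.57, so a 2-fold change in either direction lies outside the intervals of these 4 probe sets. A second Pgk1 probe set read 2903 and 2729 with IL-1b, against 2184 and 2125 with vehicle (0.38 ± 0.14, interval 0.05 to 0.72), with an unadjusted p of 0.029 and an adjusted p of 0.13. Eno2, the enolase of neurons, read 1283 and 1441 on the IL-1b arrays, against 1024 and 1145 on the vehicle arrays (0.33 ± 0.15, adjusted p = 0.21). Gapdh, which makes NADH at this stage and is widely used as a reference gene, read 13598 and 8991 on the IL-1b arrays, against 8767 and 8529.6 on the vehicle arrays at its 3' control probe set. IL-1b replicate 1 was the highest. The 3 control probe sets of Gapdh had log2 fold changes of 0.35 to 0.57, with adjusted p of 0.22 to 0.39 in the fit with control probe sets. The signs of Tpi1, Pgk1 and Pgam1, and of Pfkl, turned when arrays were centred on the median. Without IL-1b replicate 2, Tpi1, Pgk1 and Eno1 were at 0.26, 0.27 and 0.38, and without IL-1b replicate 1 they were at -0.07, 0.13 and 0.12. Eno2 was at 0.41 without IL-1b replicate 1 and at 0.24 without IL-1b replicate 2.

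**Figure D3:**
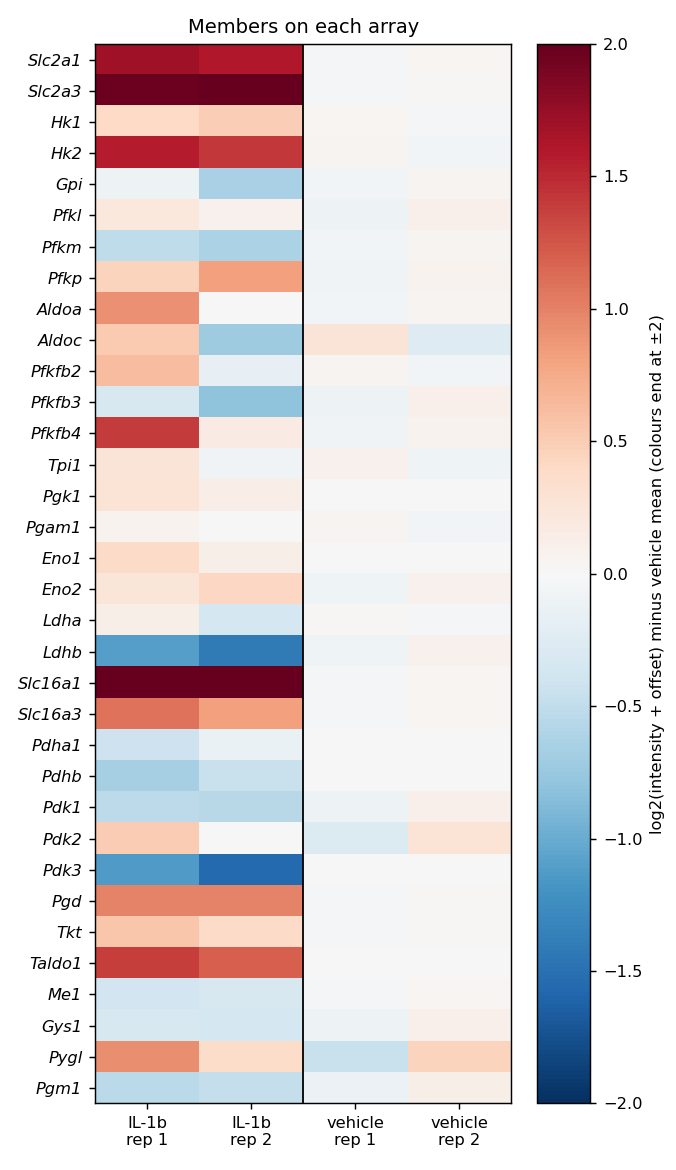
Log2(intensity + offset) of the 34 tested members (rows, by pathway step) on the 4 arrays (columns, IL-1b left), minus the mean of the vehicle arrays. Slc2a1, Slc2a3, Hk2, Slc16a1 and Taldo1 are red on both IL-1b arrays, Ldhb and Pdk3 blue on both, and Aldoa and Pfkfb4 differ between the IL-1b arrays.

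Of the 3 glycogen genes, 0 passed in limma and 1 was lower at an unadjusted p of 0.05, near the share of 29.9% over all genes. Pgm1, phosphoglucomutase, which links glycogen to glycolysis, read 526 and 546 on the IL-1b arrays, against 707 and 828 on the vehicle arrays without overlap (-0.51 ± 0.16, adjusted p = 0.082). Its other probe set was at -0.55 ± 0.31 (adjusted p = 0.30). Gys1, the muscle glycogen synthase, was at -0.34 ± 0.17 and Pygl, the liver glycogen phosphorylase, at 0.64 ± 0.50 (adjusted p = 0.25 and 0.45). Pgm1 was at -0.48 without IL-1b replicate 1 and at -0.54 without IL-1b replicate 2. Over all steps, 10 members had 2 probe sets tested, and the 2 agreed in sign for 7 and differed for Pfkfb3, Pdha1 and Pdk1.

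Across the promoter windows of tested members (RefSeq, GRCr8), 36 windows for 32 of the 34 genes, ACGTG or its reverse complement occurred in 18, or 50%, against 19.3% of all 33469 windows. Those 33469 windows were not limited to genes bright enough to be tested here. The kappa B consensus occurred in 22.2%, against 7.51% of all windows, TGACNNNGC in 16.7% against 12.1%, and TGANTCA in 13.9% against 7.33%, each on either strand. GC content moved with this, with a median of 61% in the members' windows and 51.7% in all windows, and its part was not tested. Among the members past the threshold with a window, ACGTG was present for 2 of 5 that rose and 1 of 2 that fell, and the kappa B consensus for 0 of 5 and 0 of 2. A match says only that these letters occur in the window.

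Further genes of the same pathways were taken as 7 lists. Among all genes tested, 7.19% were higher and 8.13% lower at the threshold used for these lists. In the list of glucose and lactate transport 3 of 9 tested genes rose, 3 fell and 3 did not pass. Slc2a6, a hexose carrier of internal membranes, read 224 and 143 on the IL-1b arrays, against 44.5 and 29.4 on the vehicle arrays (2.14 ± 0.43, adjusted p = 0.019). Emb (embigin), an accessory protein that brings lactate carriers to the membrane, read 905 and 974 on the IL-1b arrays, against 251 and 283 on the vehicle arrays (1.80 ± 0.16, adjusted p = 6.2e-04). Txnip, an arrestin-like protein that lowers glucose uptake, read 918 and 749 on the IL-1b arrays, against 3136 and 2950.4 on the vehicle arrays (-1.87 ± 0.16, adjusted p = 4.6e-04). Named after their values were seen, Slc16a7 (the carrier MCT2) rose by 0.98 ± 0.21, while Slc2a4 (the insulin-responsive GLUT4) and Slc37a4 (the glucose phosphate carrier of the endoplasmic reticulum) were at -1.66 ± 0.40 and -1.54 ± 0.18 (adjusted p = 0.025, 0.039 and 0.002). For Slc2a4, 1 of the 2 IL-1b values exceeded array background. Bsg (basigin), the other accessory protein of these carriers, named after its value was seen, did not pass (0.18 ± 0.21, adjusted p = 0.63). Without vehicle replicate 1 and then without vehicle replicate 2, Slc2a4 missed the threshold (adjusted p = 0.40 and 0.41), as did Slc16a7 (0.08 and 0.14), and Slc2a6 missed it without vehicle replicate 2 (0.051). Slc16a7 also missed it after median centring (0.31) and, without the intensity trend, at 0.10, and Slc2a6 at 0.05.

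Among the other lists, 0 of 9 glycolysis and gluconeogenesis genes rose and 2 fell, with 7 not past the threshold. These were Eno3, the muscle enolase, at 224 and 250.1 with IL-1b, against 1024 and 942 with vehicle (-2.03 ± 0.16, adjusted p = 3.9e-04), and Bpgm, bisphosphoglycerate mutase (-0.84 ± 0.18, adjusted p = 0.026). Of 10 genes of pyruvate handling Pdp1, the phosphatase that reactivates pyruvate dehydrogenase, fell, at 422 and 454 with IL-1b, against 778 and 776 with vehicle (-0.82 ± 0.15, adjusted p = 0.013), and of 7 glycogen genes Pygb, the brain glycogen phosphorylase, fell, at 649.6 and 838 with IL-1b, against 1917 and 2035 with vehicle (-1.41 ± 0.17, adjusted p = 0.0022). In limma 0 of 9 further pentose phosphate genes and 0 of 14 genes of the tricarboxylic acid cycle passed. At an unadjusted p of 0.05 the first list had 3 higher and 2 lower and the second 1 lower, against 29.9% of all genes, and their median log2 fold changes were 0.44 and -0.17. Of 9 regulators of glycolytic genes 3 rose and 6 did not pass. Egln3, a prolyl hydroxylase that marks hypoxia-inducible factors for decay, read 4419 and 3736 on the IL-1b arrays, against 26.0 and 31.6 on the vehicle arrays (adjusted p = 2.4e-05). Its vehicle values lay near array background (29.4 and 26.9) and 1 of the 2 was above it, so its fitted log2 fold change of 6.89 is not a precise size. Epas1, an alpha subunit of these factors, read 383 and 430.1 on the IL-1b arrays, against 59.6 and 58.1 on the vehicle arrays (2.68 ± 0.25, adjusted p = 7.5e-04), and the nuclear receptor Esrra was at 1.40 ± 0.25 (0.012). The adjusted p without vehicle replicates 1 and 2 was 0.29 and 0.16 for Bpgm, 0.14 and 0.16 for Pdp1, and 0.058 and 0.0056 for Esrra. After median centring it was 0.13, 0.14 and 0.067 for these genes, and without the intensity trend 0.10, 0.091 and 0.064.

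**Figure D4:**
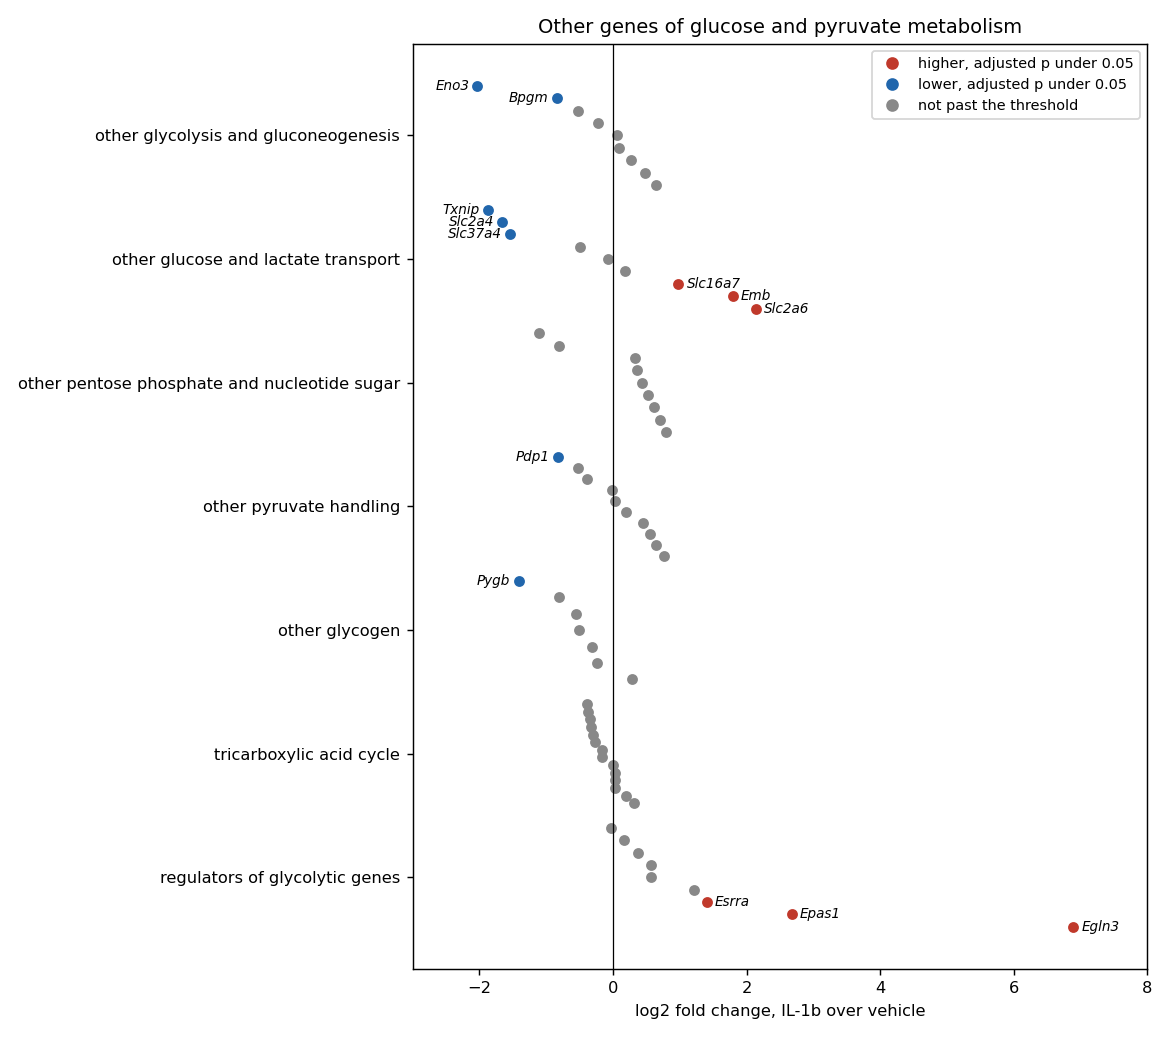
Log2 fold change of IL-1b over vehicle (x axis) for each tested gene of 7 further lists (y axis), with names for genes past the threshold. The lowest point is Eno3 at -2.03 and the highest is Egln3, whose vehicle values lay near background, and 0 of the 14 tricarboxylic acid cycle genes are past the threshold.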

How the data were processed

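The 4 biotin-labelled RNA samples were read on Affymetrix arrays, per the labels' protocols. The authors deposited linear probe set intensities, which the submitters' processing notes credit to MAS5. Its version is not given in the sources used here, and the values come without detection calls. The authors' scaling left each array with a trimmed mean of 250.0 (without the lowest and highest 2%), so none was added. Before log2, 5.49 was added to each intensity (their 10th percentile), and all fold changes are on that scale, which understates changes of dim genes. Of 31042 probe sets that are not controls, the 18625 with a mean log2 at or above the 40th percentile (5.37) entered limma 3.58.1, run in R 4.3.3 (lmFit, eBayes with an intensity trend), on 2 groups of 2 arrays. P-values were adjusted over all of them (Benjamini-Hochberg). Symbols came from the platform annotation. The fit was tested on simulated data with equal spread in both groups and no deviating array, so that test does not cover an array such as IL-1b replicate 1. Array background, chosen after seeing the data, is the 95th percentile over 27 dim bacterial control probe sets, 76.7 and 18.8 on IL-1b replicates 1 and 2 and 29.4 and 26.9 on vehicle replicates 1 and 2. Where both arrays of a group were below it, the fold given is the brighter group's geometric mean over that of the higher of background and the measured value. Named were all members past the threshold, the brightest of each step, and up to 3 genes of each further list with the largest change past it. The other members are named to account for the whole list. Alternatives were other offsets, scalings, filters, priors, thresholds, probe set rules, a replicate block and leaving out each array. The members and lists were chosen with earlier results of these data known. The number of arrays limits the precision.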

Additional observations from a re-analysis of the deposited data

How the results depend on the processing

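With 2 arrays a group, the count of calls depended on the processing. Over all probe sets 2503 passed, against 1634 after median centring, 963 without the intensity trend, 1222 at an adjusted p under 0.01, and 1357 to 8666 when 1 array was left out. The lone array was then assumed to vary like the other group. Of the members 6 were higher, against 3 after median centring and 4 to 15 with 1 array left out. Of the members 2 were lower, against 0 in limma without the intensity trend (5 at an unadjusted p of 0.05), 1 at an adjusted p under 0.01, 4 with the median over a gene's probe sets, and 1 to 9 with 1 array left out. The members' median log2 fold change was 0.21, against 0.0083 after median centring, and ranged from -0.0015 to 0.33 with 1 array left out. The causes were not tested. No alternative reversed a called member. Of the member values under the alternatives 455 stayed on their side of the threshold, 36 gained and 14 lost the call. With the replicate number as a block, 3276 probe sets, 8 members higher and 2 lower passed. The replicate 1 minus replicate 2 differences of the 2 groups had a correlation of 0.09 over the 18625 probe sets tested. The labels do not pair same-numbered arrays. A member near array background, such as Pdk4 or Pfkfb2, has no precise fold where it was below it.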
